A study of Mus musculus with 6 samples.

Results

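CD8 T cells of the tumor-draining lymph node that carried an interferon-stimulated program were chosen by their counts of 3 transcripts, Ifit1, Ifit3 and Isg15. A cell was a member when its unique molecular identifiers (UMIs, each standing for 1 captured RNA molecule) of the 3 genes summed to at least 5. The cells it was chosen from, called base cells here, had 200 to 6000 detected genes, at most 3% mitochondrial UMIs and a UMI of every one of Cd2, Cd8a and Cd8b1, which encode T cell surface proteins including both chains of the CD8 coreceptor. Of 13412 such lymph node cells 386 were members, 181 of 6658 in the control library and 205 of 6754 in the library from CD8-IFNγRKO mice, described below. The whole series held 29156 base cells, the tumor cells included.

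The study asked what sensing of interferon gamma (IFNγ) by CD8 T cells does in tumor-bearing mice. Control mice carried CD8-Cre and Rosa26Tomato, and CD8-IFNγRKO mice carried CD8-Cre, Rosa26Tomato and IFNgR1flox/flox, so that Cre removes IFNγR1, the receptor chain that binds IFNγ, where it is active in the CD8 lineage and switches on the Tomato reporter in the same cells. All mice had been engrafted with B16-OVA, a melanoma line that expresses ovalbumin, and tissue was taken on day 12. Cells of 3 mice per genotype were pooled, sorted as CD45+ CD3+ CD8+ Tomato+ and made into 1 library of 5' single-cell RNA per tissue and genotype, and untreated mice without a tumor were not among the groups. With 1 library per group there was no test between genotypes, and every interval below is a 95% interval that covers counting error only, not differences between mice. The base cells held 30029269 UMIs in the control and 28960267 in the CD8-IFNγRKO lymph node library, and the median cell held 4053 and 3866 UMIs. The lymph node libraries shared 51 cell barcodes, a number within the 51 to 82 shared by any pair of the 4 expression libraries.

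Interferons are secreted proteins that cells read through paired receptor chains and JAK kinases. Type I interferons, which include the alpha and beta forms, act mainly through the interferon-stimulated response element (ISRE) of their target genes, whereas IFNγ, the only type II interferon, acts mainly through the gamma-activated sequence (GAS). Both routes raise overlapping sets of genes, so a transcript program alone does not name the interferon that was sensed. Ifit1 and Ifit3 encode proteins that bind viral RNA, and Isg15 encodes a ubiquitin-like modifier. In T cells the program is known from viral infection and, at a low level, from interferon made under resting conditions.

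The regulatory sequence that these genes share is shown first, because the members were chosen on 3 of them and described on the others. The promoter windows, taken from RefSeq on GRCm38.p6, ran from 250 bases before to 50 bases after each annotated start, and both strands were searched for the ISRE core GAAANNGAA and the GAS core TTCNNNGAA. Stretches around the ISRE cores of the 3 genes of the rule and of 3 genes outside it follow, 5' to 3' on the strand of the gene, with every base of a match in capitals. A match on the opposite strand reads TTCNNTTTC, and some neighboring matches overlap, as in Isg15 and Oas3.
Ifit1, chr19:34640765-34640828, plus strand: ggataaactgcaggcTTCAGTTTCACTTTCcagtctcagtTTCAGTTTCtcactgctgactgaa
Ifit3, chr19:34583359-34583450, plus strand: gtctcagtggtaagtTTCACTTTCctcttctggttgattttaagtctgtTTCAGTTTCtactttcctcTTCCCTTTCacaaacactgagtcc
Isg15, chr4:156200861-156200911, minus strand: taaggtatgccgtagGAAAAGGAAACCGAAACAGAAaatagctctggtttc
Oas3, chr5:120777705-120777749, minus strand: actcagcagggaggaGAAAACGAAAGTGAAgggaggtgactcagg
Rsad2, chr12:26456548-26456586, minus strand: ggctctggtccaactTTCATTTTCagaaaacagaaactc
Gbp2, chr3:142620590-142620628, plus strand: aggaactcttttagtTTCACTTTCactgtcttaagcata
The 3 genes of the rule each held 3 matches, between 155 and 66 bases before the start. Oas3 had 2 matches, and Rsad2 and Gbp2 had 1 each.

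The share of lymph node cells over the limit was 2.72% (2.34 to 3.14, Clopper-Pearson) in the control and 3.04% (2.64 to 3.47) in the CD8-IFNγRKO library. The difference, CD8-IFNγRKO minus control, was 0.317 percentage points with an interval from -0.260 to 0.894, so a difference between the libraries was not detectable at this number of cells. The limit was easier to reach in deeper cells. In the control library 10 of 755 cells with 2000 to 3000 UMIs and 49 of 700 cells with at least 7000 UMIs were members, or 1.32% and 7.0%. In the CD8-IFNγRKO library the same classes gave 1.62% and 6.85%. Members had a median of 5005 UMIs against 4040 in the other control cells, and 4253 against 3854 in CD8-IFNγRKO mice. After each cell was thinned to 1600 UMIs and a limit of 2 summed UMIs was used, the shares were 3.88% (3.42 to 4.38) and 4.31% (3.83 to 4.82), with 237 and 41 shallower cells left out. For orientation, 718 of 7106 control and 1358 of 8638 CD8-IFNγRKO tumor base cells passed the limit of 5, which is 10.1% and 15.7%, and the thinned shares there were 8.03% and 10.5%.

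The summed UMIs fell off without a gap at the limit. No UMI of the 3 genes was found in 75.1% of control and 75.9% of CD8-IFNγRKO cells. Just outside the limit, at 4 summed UMIs, there were 75 and 76 cells, and just inside it, at 5, there were 31 and 45. The median member had 8 and 7 summed UMIs, the highest had 28 and 32, and 10 and 11 members had 20 or more. Isg15 provided 60.9% of the members' summed UMIs in control and 51.9% in CD8-IFNγRKO mice. A UMI of each of the 3 genes was present in 100 of the 181 and 131 of the 205 members, and 10 and 11 members rested on a single gene. Since these counts chose the members, they are a description: Ifit1 stood at 323 CPM, the UMIs of a gene per 1000000 UMIs of the pooled cells, in members and at 16.4 CPM in other cells of the control library, and at 492 and 21.3 CPM in the CD8-IFNγRKO library.

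**Figure D1:**
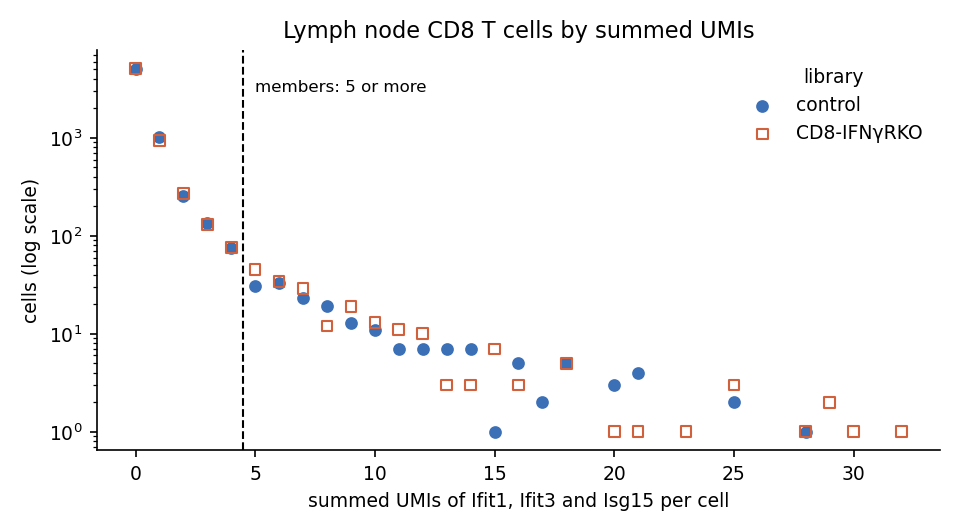
Number of lymph node base cells (log scale) at each summed UMI count of Ifit1, Ifit3 and Isg15, with filled circles for the control and open squares for the CD8-IFNγRKO library. Counts run through the limit of 5 UMIs (dashed line) without a gap in both libraries. There were 75 and 76 cells at 4 UMIs, 31 and 45 at 5, and 33 and 34 at 6.

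The label was checked on 6 interferon-stimulated genes that the rule did not use, Rsad2, Usp18, Oasl2, Rtp4, Ifi44 and Irf7. In cells thinned to 1600 UMIs, 140 of 181 control members (77.3%, 70.6 to 83.2) had a UMI of at least 1 of them, against 21.1% (20.05 to 22.1) of the other cells. In CD8-IFNγRKO mice the shares were 79.9% (73.7 to 85.2) and 21.6% (20.6 to 22.6). Of the 7 tested markers of CD8 T cells, Cd2, Cd8a and Cd8b1 were required of every base cell and check nothing, and the other 4 had median log2 ratios to the other cells of -0.10 (control) and -0.04 (CD8-IFNγRKO). The sort required CD3 and CD8, and many defining markers of other lymph node cells were at 0 in members and rare in the other cells. Members of both libraries together had 0 UMIs of Cd79a, Ms4a1 and Igkc (B cells), 0 of Lyz2, H2-Aa, Fcer1g and Itgax, which are 4 of the 10 listed genes of macrophages and dendritic cells, 0 of Siglech (plasmacytoid dendritic cells), 0 of Ncr1 (natural killer cells) and 0 of all 4 globin genes. In the far more numerous other cells each of these genes had from 0 (Siglech and Ncr1) to 71 UMIs (H2-Aa), so the zeros in members say little. Some markers were not at 0. Of the other 6 macrophage and dendritic cell genes, Cst3 had 161 UMIs in members, Cd74 had 14, and H2-Ab1, H2-Eb1, Csf1r and Tyrobp had 1 each. Cd74 was at 10.3 CPM in members against 8.36 CPM in other control cells and at 2.91 against 13.9 CPM in CD8-IFNγRKO mice. Cd4 had 46 UMIs in members, at 14.9 CPM against 9.74 CPM in other control cells and 29.1 against 18 CPM in CD8-IFNγRKO mice. Cd79b had 40 UMIs, at 14.9 against 17.4 CPM and 23.3 against 19.6 CPM, and Ighd had 13, at 4.66 against 1.76 CPM and 7.76 against 3.58 CPM. For Igkc, a common free RNA, 0 of 181 and 0 of 204 thinned members had a UMI (0 to 2.02% and 0 to 1.79%), against 0.0321% and 0.0615% of other cells, so a difference in cells with a UMI was not detectable at this depth.

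The marker lists were compared by their summed levels. The 7 B cell genes summed to 268 CPM in members and 242 CPM in other cells of the control library and to 275 and 253 CPM in the CD8-IFNγRKO library, mostly from Ighm, a heavy chain locus that T cells also transcribe. The 10 macrophage and dendritic cell genes summed to 82.0 and 89.4 CPM in control and to 88.2 and 92.8 CPM in CD8-IFNγRKO mice, led by Cst3. The 6 plasmacytoid dendritic cell genes summed to 88.6 and 128 CPM and to 133 and 158 CPM, led by Ccr9, which naive CD8 T cells express too. The 4 CD4 T cell genes, led by Cd4, were higher in members, at 24.2 against 14.5 CPM in control and 33.0 against 21.9 CPM in CD8-IFNγRKO mice. The 3 genes of natural killer and γδ T cells in the files summed to 5.59 and 1.83 CPM and to 1.94 and 1.79 CPM, led by Trdc with 6 UMIs in members. The part of such cells in the results was not tested. Of 14 interferon genes, including Ifnb1 and 7 alpha genes, 13 had 0 UMIs in members and only Ifng, which encodes IFNγ, was detected, at 13.1 CPM (14 UMIs) in control and 11.6 CPM (12 UMIs) in CD8-IFNγRKO members, close to the 12.0 and 10.3 CPM of the other cells. Doublets could not be called, since Scrublet marked 0 of 12861 and 0 of 11214 cells, and the share of cells among the highest doublet scores was lower in members (1.66% and 3.90%) than in other cells (6.64% and 7.67%).

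Beyond the genes of the rule, the program of the members was made of antiviral genes, guanylate-binding proteins and interferon-inducible GTPases, in both genotypes. Of 5475 genes with at least 20 CPM over all lymph node base cells, 50 were at least 2-fold higher in members than in the other cells of both libraries, which is 0.913% of the genes tested, and 0 (0.0%) were at least 2-fold lower in both. The median log2 ratio over all tested genes was -0.05 in control and -0.02 in CD8-IFNγRKO mice. Of the 50 genes, 41 stood in one of the gene lists described here, and 24 of the 50 were also at least 2-fold higher in the tumor cells over the same limit in both tumor libraries, against 0.438% of all tested genes. The median log2 ratio of the 50 was 1.498 and 1.56 in the lymph node libraries and 1.05 and 1.07 in the tumor libraries. The 50 genes were chosen on their lymph node ratios, so those medians lie above 2-fold by construction, and the tumor ratios were not chosen. Tumor cells over the limit were also deeper, with a median of 9472 UMIs in control and 11642.5 in CD8-IFNγRKO mice. The 2 tissues are therefore not compared in strength.

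**Figure D2:**
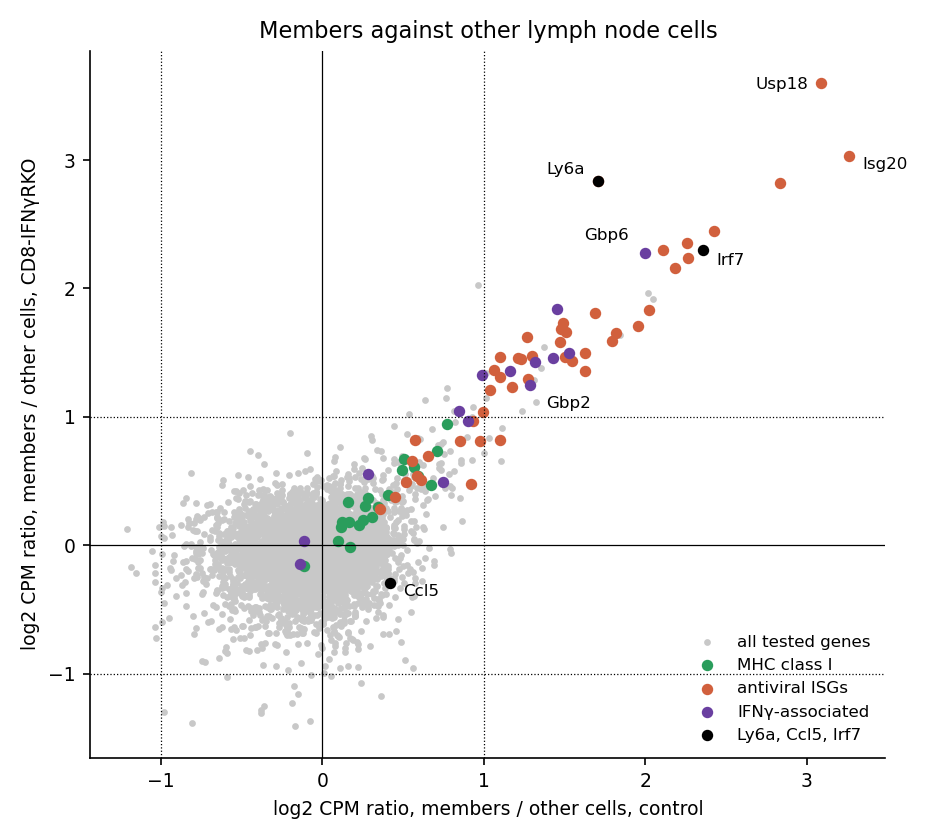
Log2 ratio of pooled CPM, members over other lymph node cells, for each of 5475 tested genes in the control (horizontal) and CD8-IFNγRKO library (vertical), with dotted lines at 2-fold. Most antiviral genes lie near the diagonal, while Usp18 (3.09 and 3.60) and Ly6a (1.71 and 2.84) stand above it and Ifi27l2a (1.63 and 1.36) below it. MHC class I genes lie inside the dotted lines, and Ccl5 has opposite signs.

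Antiviral genes carried most of the difference. Of 69 listed antiviral interferon-stimulated genes 67 were among the genes in the files, 46 passed the level filter and 32 of these were at least 2-fold higher in both libraries, against 0.913% of all tested genes, while 0 were lower. The rule also rests on interferon-stimulated genes, and the gene lists were chosen with earlier results of these data known. A share above that of all tested genes was therefore likely from the start and is a description. The median log2 ratio over the 46 was 1.29 in control and 1.46 in CD8-IFNγRKO mice. Summed over the list, members held 17135 CPM against 8198 CPM in other control cells, and 17333 against 8410 CPM in CD8-IFNγRKO mice. The other 14 that passed, among them Shisa5, Ly6e, Sp100, Samhd1, Epsti1 and Slfn2, did not reach 2-fold in both libraries.

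Usp18, a protease that strips ISG15 from proteins and holds back type I receptor signaling, stood high. It was at 192 CPM in members and 22.5 CPM in other control cells, a log2 ratio of 3.09 (2.86 to 3.32), and at 263 and 21.7 CPM in CD8-IFNγRKO mice, a ratio of 3.60 (3.39 to 3.81). These intervals did not overlap: members of the CD8-IFNγRKO library stood higher, and the other cells were alike. Isg20, an RNA exonuclease, was at 194 and 20.2 CPM in control and at 126 and 15.4 CPM in CD8-IFNγRKO mice, with log2 ratios of 3.27 and 3.03. Isg20 passed the level filter only through its level in members. With at least 20 CPM asked of the other cells alone, a filter chosen after seeing the data, 49 of 5471 genes (0.896%) and 31 of 45 antiviral genes were at least 2-fold higher in both libraries, and Isg20 was the gene that left both counts. Slfn5, of the schlafen family, was at 167 and 23.3 CPM and at 199.7 and 28.3 CPM, with ratios of 2.84 and 2.82. Oas3, which makes the 2'-5' oligoadenylates that activate RNase L, was at 121 and 22.5 CPM and at 117 and 21.6 CPM, with ratios of 2.43 and 2.44. For these genes members and other cells were well apart in both libraries, and the log2 ratios of Slfn5 and Oas3 differed by less than their intervals.

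Further genes near the top were Zbp1, a sensor of left-handed nucleic acid, with log2 ratios of 2.26 in control and 2.35 in CD8-IFNγRKO mice, Phf11b (2.27 and 2.23), Xaf1 (2.18 and 2.16) and Rtp4 (2.11 and 2.30). Outside the lists, Pml, the organizer of PML nuclear bodies, had ratios of 2.02 and 1.97 and Phf11c of 2.05 and 1.92. Among abundant genes, Ifi27l2a was at 1370 CPM in members and 443 CPM in other control cells and at 1468 and 574 CPM in CD8-IFNγRKO mice, and its log2 ratio was larger in control (1.63, 1.55 to 1.71) than in CD8-IFNγRKO mice (1.36, 1.28 to 1.43). Bst2, which encodes tetherin, a protein that holds budding virus at the cell surface, was at 493 and 127 CPM and at 444 and 136 CPM. Ifi203 (1.27 and 1.29) and Ifi208 (1.30 and 1.47), of the PYHIN family of DNA-binding proteins, were also higher in members. The counting intervals of the members' log2 ratio overlapped between the libraries for 46 of the 50 genes and lay apart for 4, among them Usp18, Ly6a and Ifi27l2a, and over all tested genes they lay apart for 1.22%.

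Some antiviral genes were too low in the pooled cells to pass the filter but were at higher levels in members. Rsad2, which encodes viperin, had 65 UMIs in control members (60.6 CPM) against 1.93 CPM in other cells and 92 UMIs in CD8-IFNγRKO members (89.2 CPM) against 2.11 CPM. Cmpk2, its chromosomal neighbor, was at 75.5 and 8.15 CPM in control and at 106 and 6.55 CPM in CD8-IFNγRKO mice. Oasl2 was at 69.0 and 7.70 CPM and at 63.0 and 7.09 CPM. These 3 genes entered no count of genes 2-fold apart between members and other cells.

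Promoters of the genes higher in members held the ISRE core more often than promoters at large. A promoter window was found for 39 of the 50 genes, and 24 of these 39 (61.5%) held the core, against 9.30% of all tested genes with a window and 9.76% of all genes with one. Of the antiviral genes at least 2-fold higher, 14 of 25 (56.0%) held it, and of those short of 2-fold 3 of 13 (23.1%). The GAS core was in 7 of the 39 (17.9%), against 8.14% of tested genes and 9.55% of all genes. These are matches to letters in a fixed window, not binding sites, and the windows were known for only part of the genes.

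Part of the genes associated with IFNγ were also higher in members, in the control and in the CD8-IFNγRKO library. Of 27 listed genes 14 passed the filter and 7 were at least 2-fold higher in both libraries (Gbp2, Gbp6, Gbp7, Gbp9, Irgm1, Igtp and Tgtp1), against 0.913% of all tested genes, with 0 lower, and the median log2 ratio over the 14 was 1.08 in control and 1.29 in CD8-IFNγRKO mice. These genes encode guanylate-binding proteins and immunity-related GTPases, which act on vacuoles that hold pathogens, and type I interferon raises many of them too. Gbp6 was at 227 CPM in members and 56.6 CPM in other control cells and at 168 and 34.6 CPM in CD8-IFNγRKO mice, with log2 ratios of 2.0 (1.80 to 2.19) and 2.28 (2.03 to 2.51). Gbp2 was at 187 and 76.9 CPM and at 107 and 44.9 CPM, with ratios of 1.28 (1.07 to 1.49) and 1.25 (0.95 to 1.53). Igtp was at 158 and 57.9 CPM and at 153 and 42.9 CPM, with ratios of 1.45 (1.22 to 1.68) and 1.84 (1.59 to 2.08). For each of the 3 genes the intervals of both libraries overlapped, and the level of Gbp2 and Gbp6 was lower in the CD8-IFNγRKO library in members and other cells. The windows of 5 of the 7 genes were known, of which 5 held the ISRE core and 3 the GAS core, against 9.30% and 8.14% of the tested genes with a known window. Irf1, an IFNγ-responsive transcription factor, did not stand apart, at 222 and 240 CPM in control and at 228 and 223 CPM in CD8-IFNγRKO mice. Cxcl9, Cxcl10, Cd274 and Ciita were among the 13 listed genes below the filter.

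Of the genes of interferon receptors and signaling, 19 of 20 passed the filter and 2 were at least 2-fold higher in members of both libraries, among them Irf7, against 0.913% of all tested genes. Irf7, the transcription factor that amplifies interferon output, was at 408 CPM in members and 79.5 CPM in other control cells and at 420 and 85.1 CPM in CD8-IFNγRKO mice, with log2 ratios of 2.36 and 2.30. Receptor genes did not stand apart: Ifnar1 was at 56.9 and 53.1 CPM in control and at 47.5 and 54.6 CPM in CD8-IFNγRKO mice, and Ifnar2 at 56.9 and 65.0 CPM and at 60.1 and 63.8 CPM. Irf9, which completes the type I complex, had log2 ratios of 1.00 and 0.72.

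The deleted gene, Ifngr1, was at 165.9 CPM (178 UMIs) in control members and at 124 CPM (128 UMIs) in CD8-IFNγRKO members, a log2 ratio of -0.42 (-0.76 to -0.08), and the same ratio in other cells was -0.41. The transcript was thus lower in the CD8-IFNγRKO library by a like amount in both classes of cells and was not absent from either. Where the counted reads lie relative to the deleted exons was not analysed here, so this level does not check the deletion in single cells. Ifngr2, the other chain, was low throughout, at 22.4 and 32.0 CPM in members.

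Genes of antigen presentation by MHC class I were slightly higher in members at the median. Of 22 listed genes 21 passed the filter and 0 were 2-fold apart in both libraries. Of all tested genes 0.913% were higher and 0.0% lower, so a count of 0 says little for a list of this size. The median log2 ratios were 0.28 in control and 0.30 in CD8-IFNγRKO mice, against -0.05 and -0.02 over all tested genes. B2m, the common light chain, was at 1776 CPM in members and 1582 CPM in other control cells and at 1687 and 1491 CPM in CD8-IFNγRKO mice. Tap1, a peptide transporter, had log2 ratios of 0.59 (0.38 to 0.80) and 0.54 (0.29 to 0.78), and the immunoproteasome subunit gene Psmb8 had ratios of 0.41 and 0.39.

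The summed levels of the antiviral and IFNγ-associated lists, which are outside the rule, increased with the summed UMIs of the 3 genes, so that the members did not form a uniform class. Summed over the antiviral list, control cells with 0, 1 to 4, 5 to 9, 10 to 19 and 20 to 39 summed UMIs held 7746, 9539, 15187, 19960 and 24585 CPM. CD8-IFNγRKO cells in the same classes held 7972, 9835, 15565, 20411 and 24188 CPM. The steps were alike in both libraries, and the last class had 10 and 11 cells. Rsad2 went from 1.11 CPM in control cells with 0 summed UMIs to 34.2, 89.9 and 200.3 CPM in the 3 classes of members, and from 0.983 to 43.9, 159 and 300.5 CPM in CD8-IFNγRKO cells. Usp18 and Irf7 followed the same order in both libraries. Not every antiviral gene did. Between the classes of 10 to 19 and 20 to 39 summed UMIs, Ifi27l2a fell from 1551 to 826 CPM in CD8-IFNγRKO cells. Xaf1 fell from 196 to 129 CPM between these classes in control. Ly6a was at 122, 46.5 and 361 CPM in the 3 classes of CD8-IFNγRKO members. Irf1 had no rising order, at 241, 237, 221, 243 and 143 CPM in control and at 226, 213, 204, 275 and 300.5 CPM in CD8-IFNγRKO cells. The IFNγ-associated list, which includes Irf1, did rise, with 1320, 1641, 2424, 3247 and 3864 CPM in the control classes. In CD8-IFNγRKO cells this list held 1090, 1371, 1965, 3103 and 4552 CPM. Gbp2, of the same list, increased through all classes in both libraries.

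**Figure D3:**
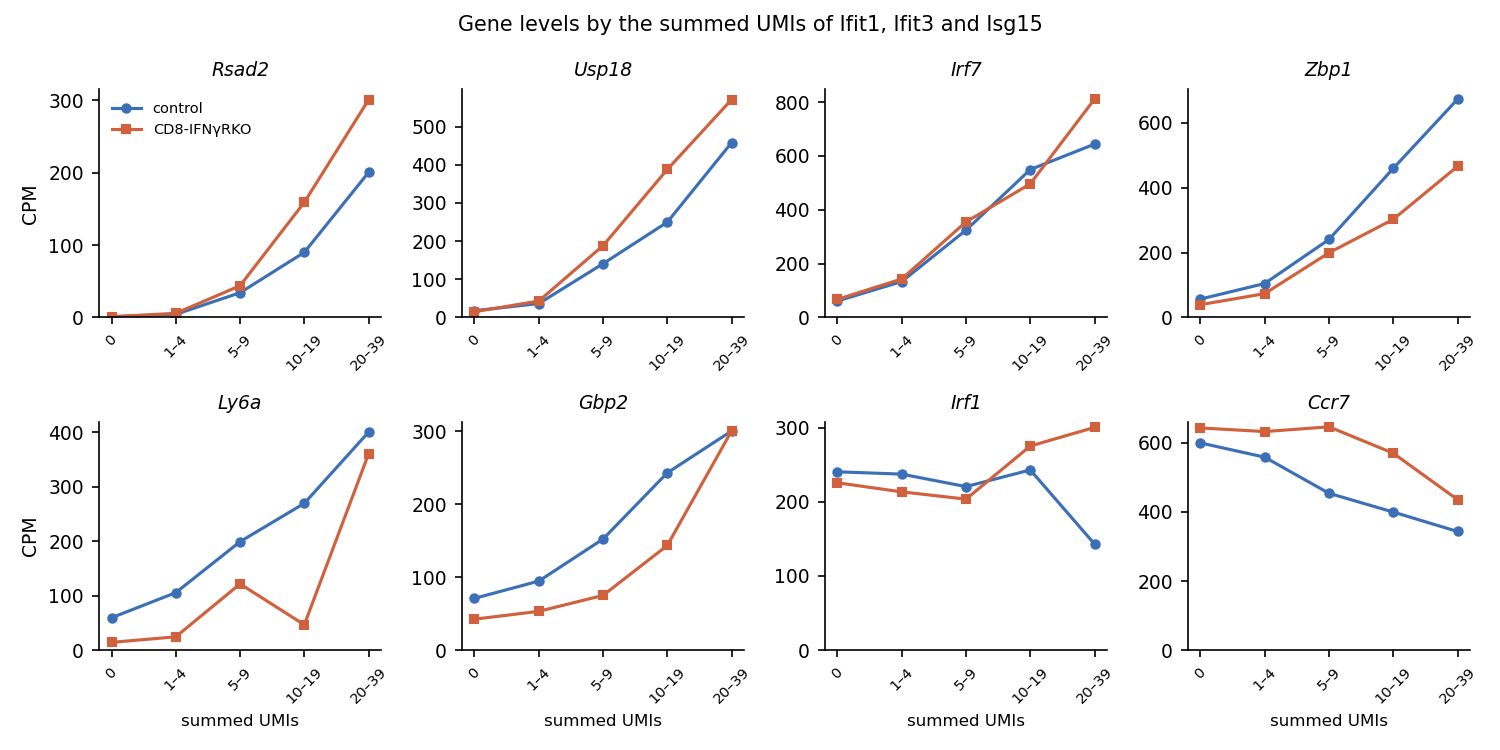
Pooled CPM of 8 genes outside the rule in cells grouped by the summed UMIs of Ifit1, Ifit3 and Isg15, for the control (circles) and CD8-IFNγRKO library (squares). Rsad2, Usp18, Irf7, Zbp1 and Gbp2 increase through all 5 classes in both libraries, and Ly6a does so in control only. Irf1 does not, and Ccr7 decreases in control through all classes. The last class holds 10 and 11 cells.

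Cells just inside and just outside the limit are described on genes the rule did not use. Control cells with 4 summed UMIs held 13235 CPM of the antiviral list and those with 5 held 13208 CPM, and the CD8-IFNγRKO values were 13493 and 14334 CPM. A UMI of at least 1 of the 6 check genes was present in 68 of 75 control cells at 4 summed UMIs and in 30 of 31 at 5, without thinning, and in 65 of 76 and 43 of 45 CD8-IFNγRKO cells.

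Genes of resting, recirculating CD8 T cells were described by the list of naive and homing genes. All 14 passed the filter and 0 were 2-fold apart in both libraries, where 0.913% of all tested genes were higher and 0.0% lower, so a count of 0 says little for a list of this size. The list had median log2 ratios of -0.21 in control and -0.14 in CD8-IFNγRKO mice. Ccr7, the receptor that leads naive T cells into lymph nodes, was at 432 CPM in members and 589 CPM in other control cells, a log2 ratio of -0.45 (-0.59 to -0.32), and at 614 and 641 CPM in CD8-IFNγRKO mice, a ratio of -0.06 (-0.18 to 0.05). These intervals did not overlap, with the lower value in control members. The thinned shares of cells with a Ccr7 UMI were 48.1% (40.6 to 55.6) against 56.5% (55.3 to 57.8) in control. In CD8-IFNγRKO mice they were 58.3% (51.2 to 65.2) against 59.8% (58.6 to 61.0). At this equal depth the intervals overlapped between members and other cells, and between the members of both libraries.

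Ly6c2, a surface antigen gene of memory and interferon-exposed T cells, was at 1360 CPM in members and 717 CPM in other control cells and at 1006 and 721 CPM in CD8-IFNγRKO mice. Its log2 ratios of 0.92 and 0.48 became 0.58 and 0.24 when the other cells were weighted to the depth of the members. A Ly6c2 UMI was found in 44.8% (37.4 to 52.3) of thinned control members against 30.0% of other cells, and in 37.3% (30.6 to 44.3) against 30.0% in CD8-IFNγRKO mice. Ly6c2 stood in the antiviral list. The separate memory and effector list had 9 tested genes, 0 of them 2-fold apart in both libraries against 0.913% of all tested genes higher, and median log2 ratios of 0.23 and 0.04. Ccl5, a chemokine gene of memory CD8 T cells, had a UMI in 18 of 181 thinned control members (9.94%, 6.0 to 15.3) against 6.79% of other cells, and in 14 of 204 (6.86%, 3.80 to 11.2) against 5.75% in CD8-IFNγRKO mice. Taken the other way, 14 of 442 control cells with a Ccl5 UMI (3.17%) and 235 of 5979 without one (3.93%) had at least 2 summed UMIs after thinning, and in CD8-IFNγRKO mice 3.35% and 4.36% did, with overlapping intervals in both libraries.

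For genes of activation, exhaustion and division few or no genes 2-fold apart would be counted at the share of all tested genes, which was 0.913% higher and 0.0% lower, so the counts of 0 say little. Of the genes that respond to the T cell receptor and NF-κB 13 passed the filter and 0 were 2-fold apart in both libraries, with median log2 ratios of -0.14 and 0.02. Cd69 had a UMI in 44.2% of thinned control members and 44.3% of other cells, and in 49.5% (42.5 to 56.6) and 41.7% (40.5 to 42.9) in CD8-IFNγRKO mice. Of 10 inhibitory receptor and exhaustion genes 4 passed (Ctla4, Tox, Cd160 and Izumo1r) and 0 were 2-fold apart in both libraries, with medians of 0.44 and 0.15 and summed levels of 208 CPM in members and 174 CPM in other control cells and of 216 and 158 CPM in CD8-IFNγRKO mice. Pdcd1, the exhaustion receptor gene, had a UMI in 2 of 181 thinned control members (1.10%, 0.134 to 3.93) against 0.160% of other cells, and in 0 of 204 (0 to 1.79%) against 0.138% in CD8-IFNγRKO mice. Of 12 cell cycle genes 3 passed (Mcm3, Mcm5 and Pcna) and 0 were 2-fold apart in both libraries, with medians of 0.65 and 0.36. The 12 summed to 364 CPM in members and 195 CPM in other control cells and to 257 and 189 CPM in CD8-IFNγRKO mice, so their sum was higher in members of both libraries. This sum and the Mki67 ratios below are against other cells not weighted to the depth of the members. Members were deeper, with a median of 5005 against 4040 UMIs in control and 4253 against 3854 in CD8-IFNγRKO mice. Mki67, a gene of dividing cells that was under the filter, was at 23.3 and 7.05 CPM (25 UMIs in members) and at 20.4 and 6.80 CPM (21 UMIs), with log2 ratios of 1.73 (1.06 to 2.33) and 1.58 (0.86 to 2.24). In thinned cells it had a UMI in 3 of 181 control members (1.66%, 0.343 to 4.77) against 0.304% (0.183 to 0.475) of other cells, and in 2 of 204 (0.980%, 0.119 to 3.50) against 0.307% (0.188 to 0.474) in CD8-IFNγRKO mice. At this equal depth the intervals of members and other cells overlapped in both libraries.

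For the V segments of the T cell receptor beta chain, which the rule did not use, no difference between members and other cells was detectable at this number of cells. The largest difference in share was 3.14 percentage points in control and 3.62 in CD8-IFNγRKO mice. A leading Trbv segment could be given to 174 control and 196 CD8-IFNγRKO members. Of the segments with at least 20 cells in a library, 20 of 20 and 19 of 21 were found among members. The most frequent segment took 9.77% of control members and 10.2% of CD8-IFNγRKO members, and the intervals of members and other cells overlapped for every segment shown in both libraries. The gene counts resolve a V segment and not a clone, and receptor sequencing of the lymph node was not analysed here.

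**Figure D4:**
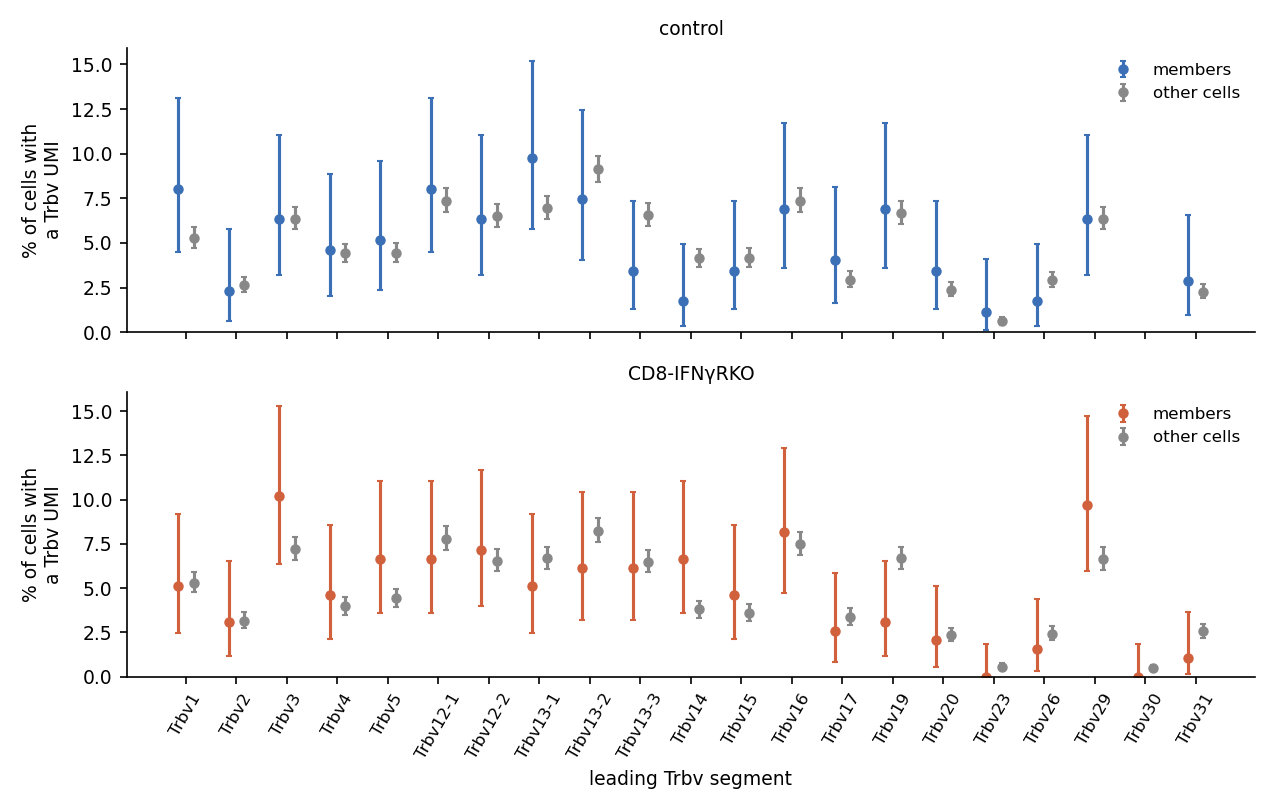
Share of cells (percent, with Clopper-Pearson intervals) by leading Trbv segment among members (colored) and other lymph node cells (gray), in the control (top) and CD8-IFNγRKO library (bottom). The intervals of members and other cells overlap for every segment, and no segment exceeds 10.2% of members.

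Between genotypes, the median of the antiviral genes in members was near 0 while single genes went both ways. Some genes tied to IFNγ were lower in the CD8-IFNγRKO library, in members and in other cells. Of 2668 genes with at least 50 CPM over the members, 81 were at least 1.5-fold higher in CD8-IFNγRKO than in control members (3.04%) and 27 at least 1.5-fold lower (1.01%), with a median log2 ratio of 0.03. Under other settings the counts ran from 24 to 342 higher and from 8 to 197 lower. Of 55 antiviral genes that passed this filter 2 were higher (Oasl1 and Ifi208) and 3 lower (Isg20, Oas1a and Ly6a), and their median log2 ratio, CD8-IFNγRKO over control, was 0.06 in members and 0.02 in other cells. Of 13 IFNγ-associated genes 0 were higher and 2 lower (Gbp2 and Gbp8), with medians of -0.11 in members and -0.32 in other cells. The median in members ran from -0.29 to 0.09 under other settings. Gbp2 was lower by a like amount in both classes, with log2 ratios of -0.81 (-1.16 to -0.47) in members and -0.78 in other cells. MHC class I genes had a median of -0.18 in both classes. Of 9 heat shock genes 4 were at least 1.5-fold higher in CD8-IFNγRKO members (Hspa1a, Hspa1b, Hsph1 and Dnaja1), against 3.04% of all tested genes, and the median of the 9 was 0.51 in members and 0.52 in other cells.

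Ly6a, which encodes the surface antigen Sca-1, stood lower in the CD8-IFNγRKO library in both classes, and less so in members. It was at 232 CPM in members and 71.1 CPM in other control cells, a log2 ratio of 1.71 (1.51 to 1.90), and at 118 and 16.6 CPM in CD8-IFNγRKO mice, a ratio of 2.84 (2.54 to 3.13). Between genotypes the log2 ratio was -0.97 (-1.30 to -0.65) in members and -2.10 (-2.25 to -1.95) in other cells. In CD8-IFNγRKO members, however, 5 cells held 69 of the 122 Ly6a UMIs (56.6%), the first of them 32, against 16.9% in the 5 highest control members. Without the 5 highest members of each library, a choice made after seeing the data that by construction lowers the members only, the ratio of members over others was 1.49 (1.27 to 1.69) in control and 1.69 (1.25 to 2.10) in CD8-IFNγRKO mice, and the ratio between genotypes in members was -1.90 (-2.36 to -1.45). A Ly6a UMI was found in 87 of 181 control and 42 of 205 CD8-IFNγRKO members, or 48.1% and 20.5%, against 17.8% and 5.54% of other cells.

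**Figure D5:**
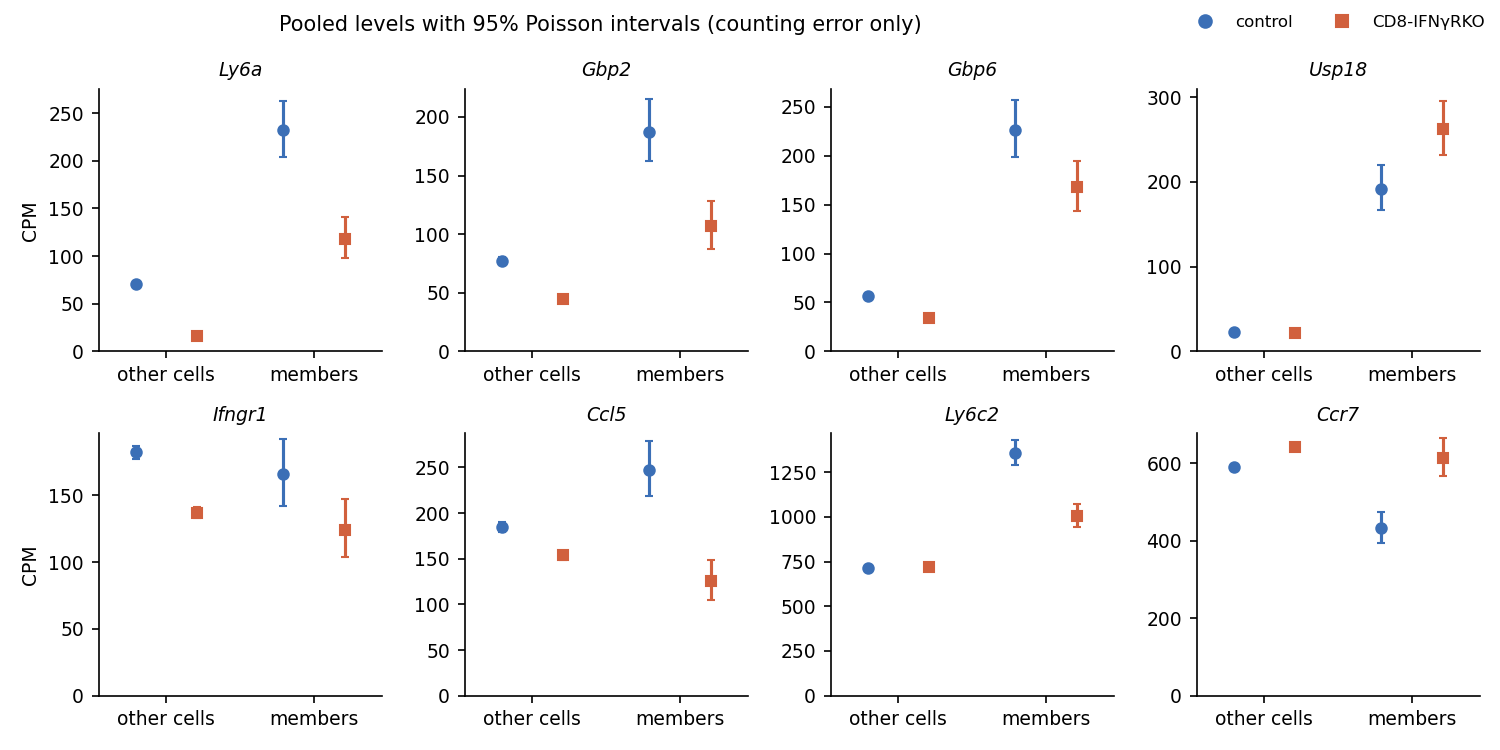
Pooled CPM with 95% Poisson intervals (counting error only) of 8 genes in other lymph node cells and in members, for the control (circles) and CD8-IFNγRKO library (squares). Ly6a, Gbp2 and Gbp6 are higher in members and lower in the CD8-IFNγRKO library in both classes, Usp18 is highest in CD8-IFNγRKO members and alike in the other cells, and Ccr7 is lowest in control members.

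By the rule for named genes, the 5 genes with the lowest ratio between genotypes in members were Ccl5 (-0.98), Ly6a, Fosb (-0.93), Dph3 (-0.87) and Jak3 (-0.85), and the 5 with the highest were E430024P14Rik (1.20), Ccr9 (0.99), Rsrp1 (0.99), Hbs1l (0.95) and Zfp622 (0.95). Jak3, the kinase of the common gamma chain, was at 103 and 57.2 CPM in members and also lower in other cells of CD8-IFNγRKO mice (-0.62). Ccr9, a gut homing receptor gene, was at 43.8 CPM (47 UMIs) in control and 87.3 CPM (90 UMIs) in CD8-IFNγRKO members and differed the same way in other cells (0.44). Fosb, an AP-1 subunit gene, was at 113 CPM (121 UMIs) in control and 59.1 CPM (61 UMIs) in CD8-IFNγRKO members. Most of these genes had under 130 UMIs in a library's members, and they are the picked extremes of 2668 genes. The 8 lowest genes of members against other cells, Xpc, Gemin5, Ggt1, Pwwp3a, Ppm1d, Plaur, Slc29a1 and Whamm, had 9 to 21 UMIs in a library's members and log2 ratios between -0.64 and -1.38, and none was 2-fold lower in both libraries.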

How the data were processed

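The authors aligned reads with Cell Ranger 6.0.0 to the 10x mouse reference (mm10) and deposited UMI counts per gene and cell for each library, unnormalized and without cell labels. The deposited lymph node tables held 12979 and 11298 barcodes, and 51.3% and 59.8% of them passed the filters for base cells. The members and gene lists were chosen with earlier results of these data known. UMIs were pooled per library and class (members, other cells) and given as CPM of all UMIs, with exact Poisson intervals, shares with Clopper-Pearson intervals, and log2 ratios with conditional binomial intervals and no pseudocount. Intervals cover counting error only. Pooled mice and single libraries allowed no test. T cell receptor segments, Ifit1, Ifit3 and Isg15 entered no count of genes. Cells were thinned with fixed seeds, doublets scored with Scrublet in scanpy 1.11.5, and ratios tested on simulated data. Named genes were the genes of the rule, Ifngr1 and Ifngr2, listed genes 2-fold apart in both libraries (at most 4 by level and 4 by ratio per list), the 12 highest and 8 lowest ratios of members, and the 5 highest and lowest between genotypes. Other genes were picked after their values were seen. A split by sex was not usable, since 3 lymph node base cells had Xist and no Y-linked UMI. Promoter windows came from RefSeq (GRCm38.p6). Alternative limits, filters, depths and scalings were tried. The receptor contig tables were not used. Values of some genes are not reported here.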

Additional observations from a re-analysis of the deposited data

Results flagged for a closer look

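Ccl5, a chemokine gene of memory CD8 T cells, differed in sign between the libraries. Its log2 ratio of members over other cells was 0.42 (0.24 to 0.60) in control and -0.30 (-0.56 to -0.04) in CD8-IFNγRKO mice, with levels of 247 and 185 CPM in control and 125 and 153 CPM in CD8-IFNγRKO mice. The difference was not tested, since there was 1 library per genotype. In each library 5 members held much of the signal, 116 of 265 Ccl5 UMIs (43.8%) in control and 74 of 129 (57.4%) in CD8-IFNγRKO mice. Without these members, a choice made after seeing the data, the ratios were -0.37 (-0.62 to -0.14) and -1.48 (-1.89 to -1.10), negative in both libraries, and leaving out the richest members lowers the members only. Against other cells weighted to the depth of the members the ratios were 0.16 and -0.60. The thinned share of members with a Ccl5 UMI was above that of the other cells in both libraries, with overlapping intervals.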

How the results depend on the processing

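No paired analysis was possible because each group had 1 library. With limits of 3, 8 and 10 summed UMIs the shares were 5.87%, 1.41% and 0.931% in control and 6.10%, 1.44% and 0.977% in CD8-IFNγRKO mice, without the Cd2, Cd8a and Cd8b1 filter 2.11% and 2.57%, and thinned 3.88% and 4.31%. Their difference stayed positive, from 0.0244 to 0.552 percentage points. Genes 2-fold higher in members numbered 30 at a filter of 50 CPM and 87 at 5 CPM, and genes 2-fold lower 7 and 22 at limits of 8 and 10, 12 at 5 CPM, and 1 each without the Cd2, Cd8a and Cd8b1 filter, without high Scrublet scores, and against cells at 0 summed UMIs. Genes 1.5-fold higher and lower between genotypes numbered 28 and 14, 163 and 86, and 268 and 150 at limits of 3, 8 and 10, 24 and 8 at a filter of 100 CPM, and 342 and 197 at 20 CPM, with 48 higher without the Cd2, Cd8a and Cd8b1 filter. The counts between genotypes were larger under the settings that left fewer UMIs behind a gene. The antiviral median ranged from 1.10 to 1.62 in control and 1.25 to 1.77 in CD8-IFNγRKO mice, and the IFNγ-associated median from 0.85 to 1.29 and 1.01 to 1.78. The genotype median of the IFNγ-associated list in members ranged from -0.29 to 0.09, so its sign was not settled. Of the values of single named genes under these settings, 883 lay within the counting interval of the reported value, 146 lay outside it and 0 had the opposite sign with an interval on 1 side of 0. Leaving out the 5 members richest in Ccl5, chosen after seeing the data, reversed its control ratio to -0.37 and moved the CD8-IFNγRKO ratio to -1.48, and by construction this lowers the members only.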

Other observations

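S100a6, a calcium-binding protein gene seen after its values were known, was at 83.0 CPM in members and 42.5 CPM in other control cells and at 86.3 and 21.1 CPM in CD8-IFNγRKO mice, with log2 ratios of 0.96 (0.64 to 1.28) and 2.03 (1.69 to 2.35). It did not reach 2-fold in control. Among genes outside the lists that were at least 2-fold higher in members of both libraries were Trafd1 (1.84 and 1.64), a feedback regulator of innate signaling, Trim21 (1.33 and 1.11), an antibody receptor of the cytosol, Jaml (1.31 and 1.29), an adhesion molecule, and Samd9l (1.02 and 1.15). The values rest on 1 library of 3 pooled mice per genotype, on members chosen from the cells they are compared with, and on 1072830 and 1031340 UMIs of members, so differences between mice and genotypes cannot be told apart.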
